A study of Capra hircus with 4 samples.

Results

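Epithelial nuclei were a rare class in these goat ovaries. They were taken by a marker gate: a nucleus entered it if it had 800 or more UMIs (unique molecular identifiers, each a counted RNA molecule), if at least 3 of the 8 epithelial genes EPCAM, KRT8, KRT18, KRT19, CDH1, MSLN, PAX8 and ESRP1 had a UMI, and if at most 3 of the 8 motile cilia genes DNAH5, DNAH9, DNAH11, DNAH12, SPAG17, HYDIN, NEK10 and NEK5 had one. The gate held 278 of 48332 nuclei, which is 0.668% of the 41606 nuclei with 800 or more UMIs, and 3757040 of 225537272 UMIs.

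Ovaries of 2 Du'an and 2 Nubian goats were profiled with droplet-based sequencing of RNA from single nuclei. Each goat gave 1 library, and the libraries are named Du'an 1, Du'an 2, Nubian 1 and Nubian 2. All 4 goats were about 3 years old and had received a vaginal progesterone insert of 300 mg for 17 days and no further hormone to induce superovulation, so no group lacked the treatment. The study set Nubian goats with large litters against Du'an goats with single births, both in estrus, and each breed stands on 2 animals. The libraries held 9364, 10893, 16988 and 11087 nuclei and 40573246, 60566681, 71613892 and 52783453 UMIs, in that order.

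The ovary is covered by a thin epithelium continuous with the lining of the abdominal cavity, and epithelial tubules of the rete ovarii lie near its hilum. Epithelial cells are joined by E-cadherin (CDH1) and EPCAM, are filled with keratins, and keep their state through transcription factors such as GRHL2 and the splicing factor ESRP1. PAX8 and PAX2 are transcription factors of the developing kidney and genital ducts, and MSLN and WT1 are genes of mesothelium. KRT8 and KRT18 can also be expressed by granulosa cells, the support cells of the follicle, so a gate that counts keratins can take in other cells.

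Most of the gated nuclei came from 2 of the 4 goats. Du'an 1 gave 10 of 7674 nuclei (0.130%, exact 95% binomial interval 0.0625% to 0.240%) and Du'an 2 gave 64 of 9996 (0.640%, 0.493% to 0.817%). Nubian 1 gave 12 of 15093 (0.0795%, 0.0411% to 0.139%) and Nubian 2 gave 192 of 8843 (2.17%, 1.88% to 2.50%). The higher library of each breed thus exceeded the lower library of the same breed beyond its counting interval, and the breeds overlapped. Du'an 2 and Nubian 2 together held 256 of the 278 nuclei (92.1%). The mean share was 1.13% in the Nubian and 0.385% in the Du'an goats, a difference of 0.740 percentage points (two-sided exact permutation test over goats, p = 1; 2 goats against 2 cannot go below 0.333). Without Nubian 2 the difference was -0.306 points, so its sign rested on that goat. With at least 4 epithelial genes the shares were 0.0130%, 0.400%, 0.0265% and 1.01% in the same order of libraries, and the difference was 0.310 points. Without gated nuclei that had 3 genes of another cell type list the shares were 0.0521%, 0.350%, 0.0331% and 1.66%. The difference was then 0.647 points. Intervals cover counting error only. Per the study's methods the outer covering and fat were trimmed from each left ovary before dissociation, and the part of that step in these shares was not tested.

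**Figure D1:**
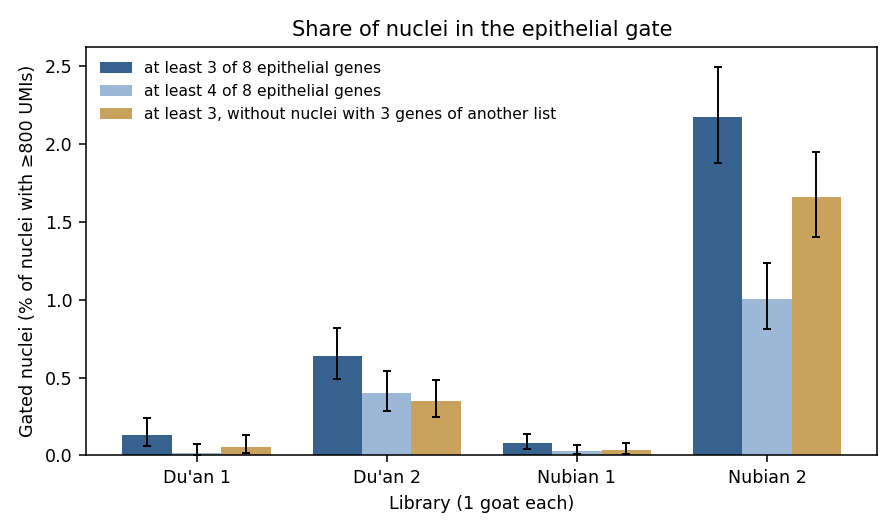
Share of nuclei with 800 or more UMIs that passed the epithelial gate, as a percent, in each of the 4 libraries, with exact 95% binomial intervals. Nubian 2 stands highest (2.17%) and Nubian 1 lowest (0.0795%) under the main rule (dark bars), and the 2 stricter rules (light and tan bars) keep Du'an 2 and Nubian 2 above the other libraries.

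The gate took deep nuclei. Median UMIs were 11364, 7848, 14472 and 10202 in the gated nuclei of Du'an 1, Du'an 2, Nubian 1 and Nubian 2, against 2760, 3828, 2892 and 3048 over all nuclei with 800 or more UMIs. After each nucleus was thinned to 800 UMIs, 0, 2, 0 and 8 nuclei passed, in the same order of libraries; 0 of 7674 and 0 of 15093 allow shares of up to 0.0391% and 0.0199% by a floor of 3 counts (upper ends of the exact 95% intervals 0.0481% and 0.0244%). Near the edge of the rule, 144 gated nuclei had exactly 3 of the 8 epithelial genes, while 240 nuclei with exactly 2 fell just outside. The cilia rule turned away 77 nuclei with 3 or more epithelial genes, 2 of them with exactly 4 cilia genes, and 9 gated nuclei had exactly 3. A further 3 nuclei failed only the limit on UMIs.

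The genes that chose the members are given as a description. PAX8 was seen in 202 gated nuclei (72.7%), EPCAM in 196 (70.5%), CDH1 in 194 (69.8%) and ESRP1 in 174 (62.6%). KRT8, in 120 nuclei (43.2%), KRT18, in 70 (25.2%), and KRT19, in 66 (23.7%), were rarer, and MSLN was seen in 22 (7.91%). The most frequent combination, EPCAM with CDH1, PAX8 and ESRP1 and no other gate gene, was found in 34 nuclei (12.2%), 29 of them from Nubian 2. In Du'an 1 the gate rested on other genes: 6 of its 10 nuclei had exactly KRT8, KRT18 and CDH1, and PAX8 was seen in 1. EPCAM and PAX8 were seen together in 144 nuclei, 73.5% of those with EPCAM and 71.3% of those with PAX8, and KRT8 and KRT18 in 50, 41.7% and 71.4% of their nuclei. These gate genes define the members, so that their overlap is no finding.

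EPCAM stood at 34.4, 160, 17.3 and 157 CPM (UMIs per 1000000 UMIs of the summed nuclei) in gated nuclei of Du'an 1, Du'an 2, Nubian 1 and Nubian 2, and at 0.483, 6.64, 0.685 and 14.2 CPM in the other nuclei. PAX8 stood at 8.60, 153, 69.0 and 153 CPM in gated nuclei. Du'an 2 and Nubian 2 were alike in these 2 genes and the other libraries were lower. KRT8 had another order, with 301, 1185, 147 and 176 CPM, but 86.3% of its gated UMIs lay in the 24 nuclei of the fourth subset described below, and 21.2% in 1 nucleus. Without that subset KRT8 stood at 301, 162, 95.3 and 44.2 CPM. MSLN, the mesothelin gene, had no UMI in the gated nuclei of Du'an 1 and Nubian 1 and stood at 9.53 and 5.45 CPM in the other libraries.

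EPCAM was also seen at a low share in nuclei with genes of cells that should lack it; the parts of free RNA and of doublets in this were not tested. In Nubian 2, EPCAM was seen in 77.1% of gated nuclei, at a median of 10202 UMIs, in 2.16% of all other nuclei and in 5.68% of 264 nuclei with 3 or more T or natural killer genes, at a median of 3231 UMIs. Thinned to 800 UMIs, EPCAM was seen in 18.8% of gated and 0.751% of other nuclei of that library.

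**Figure D2:**
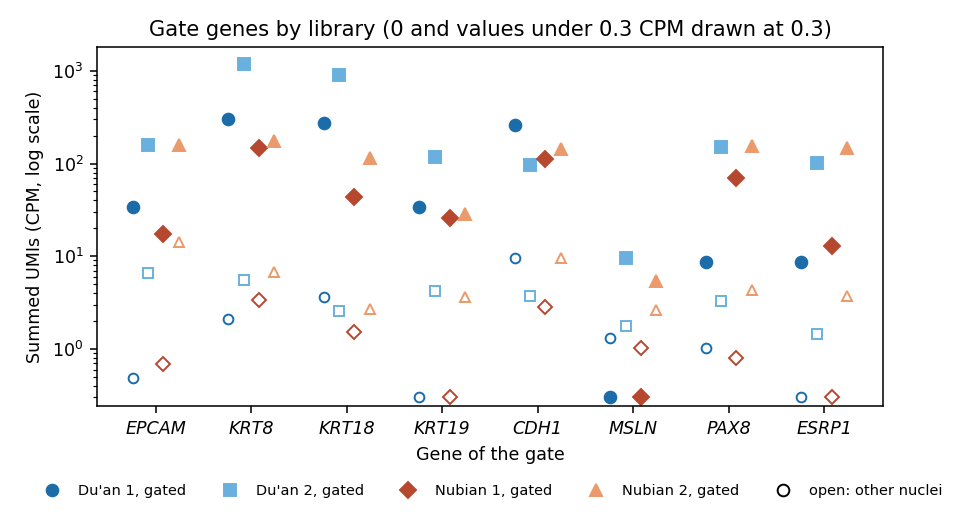
CPM (log scale) of the 8 epithelial genes of the gate in gated nuclei (filled) and in the other nuclei (open) of each library, with 0 drawn at the floor of the axis. Filled marks lie above open ones because these genes chose the members, except for MSLN in Du'an 1 and Nubian 1, where no gated nucleus had a UMI.

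The epithelial label described most but not all members. Clustering of the gated nuclei on all their genes gave 5 subsets of 104, 85, 45, 24 and 20 nuclei, described here without a test. Subsets 1 to 3 held EPCAM, at 167, 240 and 403 CPM, and GRHL2, the grainyhead factor that maintains epithelial junctions, at 324, 408 and 214 CPM. WT1 (770, 879 and 603 CPM) and PAX2 (223, 270 and 114 CPM) were present in the same 3 subsets.

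Among them, subset 1 came from all 4 libraries (4, 14, 7 and 79 nuclei) and was led by RBFOX1, SLC4A4, a bicarbonate cotransporter gene, and GPM6A. RBFOX1 was seen in only 8 of its 104 nuclei, and the 1 nucleus with most SLC4A4 held 40.6% of that gene's gated UMIs. Subset 2 came almost wholly from Nubian 2 (82 of 85 nuclei) and was led by PDK4, an inhibitor of pyruvate dehydrogenase, at 600 CPM, and by the stress-response gene ATF3, at 2574 CPM and seen in 85 of 85 nuclei. FOSB, an immediate early gene, stood at 654 CPM there and between 10.3 and 184 CPM in the other subsets. Subset 3 came mainly from Du'an 2 (37 of 45 nuclei) and was led by TFF3, a secreted trefoil peptide, at 306 CPM, KRT19 at 333 CPM, WFDC2 at 289 CPM and the protease gene MMP7 at 345 CPM, together with mitochondrially encoded transcripts (ND2, 9607 CPM). Its median mitochondrial share was 4.83% of UMIs, against 0.337% to 5.41% for the gated nuclei of single libraries, and the complement genes C1QA and C1QB among its leaders came from 1 and 4 nuclei. Subset 3 came mostly from Du'an 2, whereas Nubian 2 gave 79 nuclei to subset 1 and 82 to subset 2.

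Subset 4 went against the label. Its 24 nuclei had a median of 42837 UMIs and held 31.1% of all gated UMIs, including 59.3% in Nubian 1 and 40.4% in Du'an 2. They carried keratins, with KRT8 at 1121 CPM and KRT18 at 831 CPM, and PAX8 was seen in 18 of them at 33.4 CPM, while GRHL2, EHF, ESRP1 and PAX2 had no UMI and 23 of 24 had neither EPCAM nor ESRP1. VIM (vimentin, 5666 CPM), TIMP1 (a metalloproteinase inhibitor, 9973 CPM) and MMP9 (a gelatinase, 1262 CPM, seen in 9 of 24 nuclei) led it. UMIs of 3 or more of 8 granulosa genes were seen in 21 of the 24 nuclei, but also in 55.1% of all nuclei outside the gate, granulosa nuclei included, at a lower depth, and the counts were not thinned to 1 depth. Subset 5, with 20 nuclei, was led by ABI3BP (seen in 4 of 20 nuclei), RUNX2 (7501 CPM), ADGRB3, GPC5 and CDH2 (3204 CPM), had EPCAM at 43.0 CPM and FSHR, the receptor of follicle-stimulating hormone, at 333 CPM, and 14 of its nuclei had 3 or more granulosa genes. It held 73.3% of the gated UMIs of Du'an 1. Both subsets are therefore named by their leading genes only. Whether their nuclei were doublets was not tested.

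**Figure D3:**
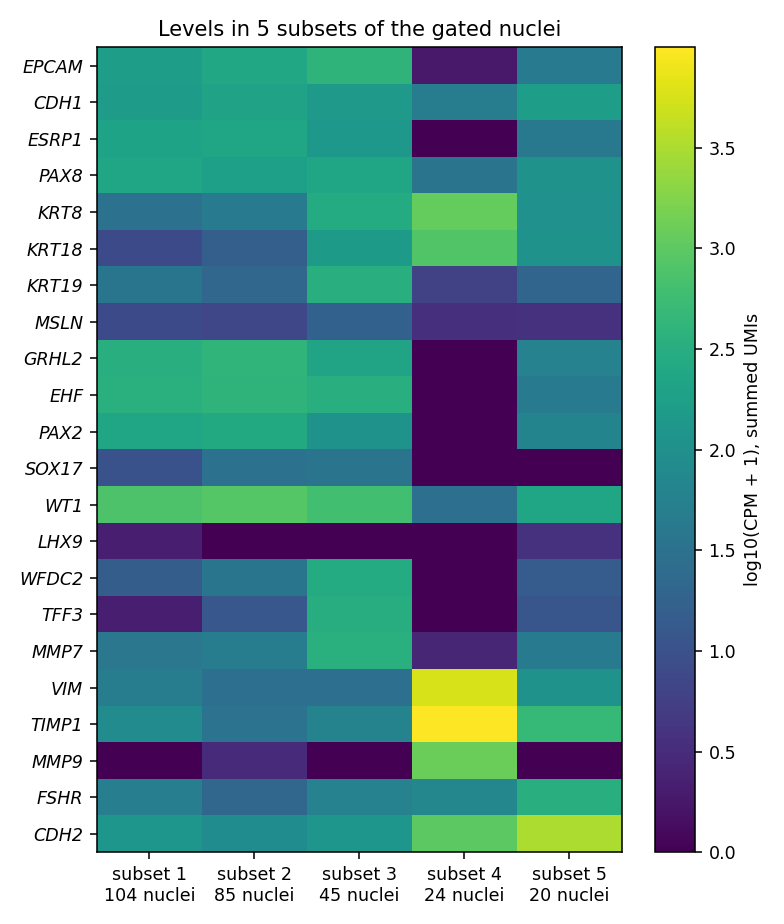
Levels of selected genes, as log10(CPM + 1), in the 5 subsets of the 278 gated nuclei (columns, with the number of nuclei). Subsets 1 to 3 share EPCAM, ESRP1, GRHL2, EHF, PAX2 and WT1, whereas subset 4 has at most 0.857 CPM of the first 5 of these, 28.3 CPM of WT1, and the highest KRT8, KRT18, VIM, TIMP1 and MMP9.

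Next, the gated nuclei were compared with all other nuclei of the same goats on genes that the gate did not use. Summed UMIs per goat were tested by the quasi-likelihood test of edgeR, each goat being a block, and p-values were adjusted (Benjamini-Hochberg) over 16391 genes. A total of 1054 genes were higher (6.43%) and 1445 lower (8.82%) at an adjusted p under 0.05; DESeq2 gave 1258 higher and 1018 lower. The median log2 fold change of all genes was -0.23, and with DESeq2's size factors in edgeR it moved by 0.18. With the whole DESeq2 fit it moved by 0.23. Median mitochondrial shares in gated nuclei of Du'an 1, Du'an 2, Nubian 1 and Nubian 2 were 1.63%, 3.02%, 5.41% and 0.337%. Over all nuclei with 800 or more UMIs they were 0.532%, 1.29%, 1.79% and 1.08%, so that Nubian 2 went the other way. The part of these shares in the fold changes was not tested.

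The naming rule took genes with a mean of at least 50 CPM in the gated nuclei, and EHF had the largest fold among them. EHF, an ETS-family transcription factor of epithelia, stood at 34.4, 191, 21.6 and 258 CPM in gated nuclei of Du'an 1, Du'an 2, Nubian 1 and Nubian 2 and at 0.229, 3.75, 0.0999 and 7.40 CPM in the others (log2 fold change 5.86 ± 0.55 SE, edgeR adjusted p = 2.18e-06, n = 4 goats). Every goat was higher in its gated nuclei, and the 2 groups of sums did not overlap, though EHF rested on 4 UMIs in Du'an 1 and 5 in Nubian 1, against 160 and 663 in Du'an 2 and Nubian 2. MYH14 and SLC28A3, also named as higher, rested on 1 UMI each in Du'an 1. GRHL2 stood at 60.2, 129, 43.1 and 257 CPM against 0.737, 3.11, 0.514 and 8.69 CPM (5.40 ± 0.48, edgeR adjusted p = 1.26e-06). ATP2C2, a calcium and manganese pump of the secretory pathway, stood at 215, 381, 90.6 and 608 CPM against 1.85, 6.96, 1.30 and 20.05 CPM (5.63 ± 0.49, edgeR adjusted p = 1.17e-06). Both rose in all 4 goats without overlap.

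SPOCK1, a secreted proteoglycan, was the most abundant of the 15 genes that the naming rule picked as higher, at 275, 1230, 444 and 3187 CPM in gated and 9.09, 27.6, 18.9 and 106 CPM in other nuclei (log2 fold change 4.72 ± 0.48), and it was seen in 233 gated nuclei (83.8%). PAX2 stood at 17.2, 72.7, 30.2 and 177 CPM against 0.584, 3.18, 0.357 and 8.16 CPM (4.70 ± 0.52). In Du'an 1 and Nubian 1 PAX2 rested on 2 and 7 UMIs, from 1 nucleus each. The others were OVN, ATP2B2 (a plasma membrane calcium pump), C3H1orf168, CCDC129, DCDC2 (a doublecortin-domain gene), MYH14 (a nonmuscle myosin), CRYAB (a small heat shock protein), TNFRSF12A (a TNF-family receptor), SLC28A3 (a nucleoside transporter) and RNF43 (a ligase that removes WNT receptors). Their log2 fold changes ran from 4.71 for RNF43 to 5.69 for OVN. TNFRSF12A differed from the rest of these in that 96.4% of its gated UMIs came from subset 4: without gated nuclei that had 3 genes of another cell type list its log2 fold change was 0.29 (edgeR adjusted p = 0.963). OVN lost its call without the goat block (adjusted p = 0.124).

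**Figure D4:**
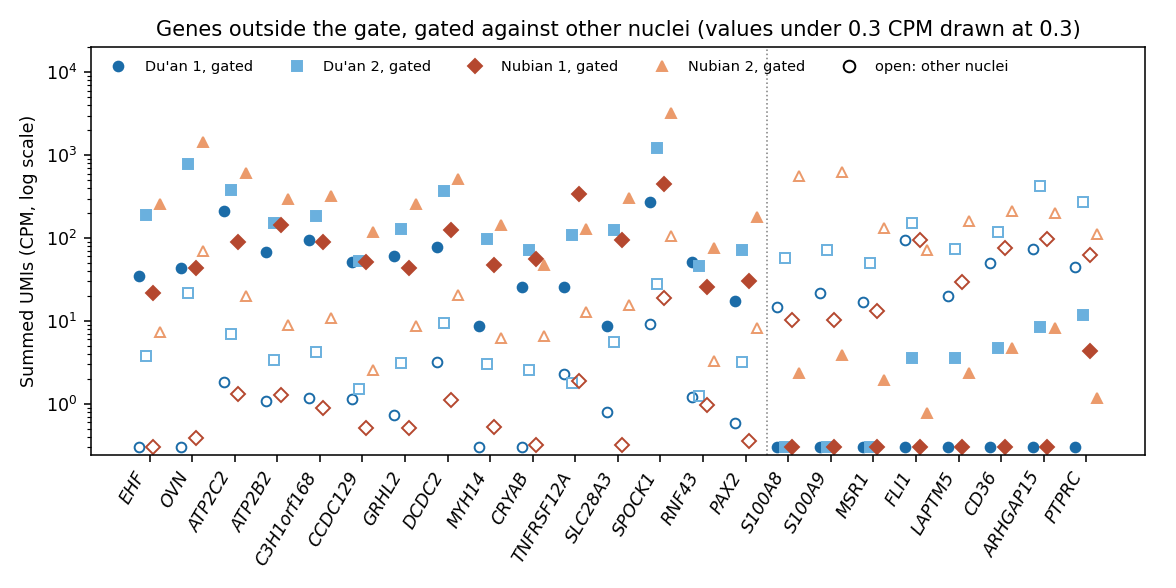
CPM (log scale) of the 15 genes higher (left of the dotted line) and the 8 lower (right) in gated nuclei (filled) than in other nuclei (open) of the same goat, chosen by the naming rule. Within each goat the filled marks lie above the open ones on the left, as for EHF (258 against 7.40 CPM in Nubian 2), and below them on the right.

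GRHL2 marked these nuclei and the multiciliated ones among 10 classes set apart by their list genes. It averaged 122 ± 97.1 CPM (SD, n = 4 goats) in the gated and 73.6 ± 57.9 CPM (n = 3) in the multiciliated nuclei, and at most 5.97 CPM in the other 8 classes. ALDH1A2 averaged 281 ± 149 and 198 ± 112 CPM in the same 2 classes and at most 35.7 CPM elsewhere. WT1 was spread more widely, at 358 ± 163 CPM in gated, 434 ± 341 CPM in multiciliated and 406 ± 136 CPM in blood endothelial nuclei, and these 3 classes overlapped.

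The 8 genes named as lower were S100A8 and S100A9 (calgranulins of neutrophils and monocytes), MSR1 (a macrophage scavenger receptor), FLI1 (an ETS factor of endothelium and blood), LAPTM5, CD36, ARHGAP15 and PTPRC (the leukocyte antigen CD45). PTPRC stood at 0, 11.9, 4.31 and 1.17 CPM in gated nuclei against 44.9, 274, 62.2 and 111 CPM in the others. Under the study's filters on nuclei (mitochondrial share at most 20%, UMIs and genes within 2 SD of the mean) S100A8 (log2 fold change -2.81, edgeR adjusted p = 0.114) and S100A9 (-1.83, 0.292) were no longer called. The study also removed doublets, a step that this setting leaves out here and below.

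Gene lists chosen by function were then read against the 6.43% of all genes called higher and the 8.82% called lower. Of 16 regulators of epithelial transcription and splicing outside the gate, 13 had counts enough to be tested, and 9 were higher and 1 lower (median log2 fold change 4.04, against -0.23 over all genes). Besides EHF and GRHL2, the genes that rose included OVOL2 (4.52), ELF3 (4.50), ELF5 (4.11), ESRP2 (4.04), SOX9 (3.60) and KLF5 (2.93). SOX9, however, had 44.9% of its 69 gated UMIs in subset 4 and 17.4% in subset 5. ELF5 had 23 gated UMIs, with none in Du'an 1 or Nubian 1, and OVOL2 had none in Nubian 1. GRHL1, a paralogue of GRHL2, fell (-2.85 ± 0.64), at 8.60, 3.58, 0 and 5.84 CPM in gated and 19.5, 45.9, 34.7 and 19.2 CPM in other nuclei. Its call was lost without Du'an 2 and without gated nuclei that had 3 genes of another list. FOXA1 and OVOL1 were at 0 in the gated nuclei of every goat, but in the other nuclei too OVOL1 had no UMI and FOXA1 reached at most 0.0205 CPM.

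Of 18 other epithelial membrane and cytoskeletal genes, 16 were tested, and 12 were higher and 0 lower (median 2.32). KRT7 (4.01), SPINT1 (3.74, a protease inhibitor of epithelia), RAB25 (2.94, a small GTPase of recycling endosomes) and MYO5B (3.04) were among them. Without Du'an 2 the count fell to 3, without Nubian 2 to 7 and without Du'an 1 to 8, and without the goat block it was 7. Of 20 claudin and tight junction genes, 18 were tested and 7 were higher (median 1.26), namely TJP3, CLDN7, CLDN10, CLDN3, CLDN8, MARVELD3 and CLDN4. Without Du'an 2 or Nubian 2 the count was 4. CLDN8, MARVELD3 and CLDN4 were seen in only 7, 9 and 10 gated nuclei. Du'an 1 and Nubian 1 had no UMI of CLDN8 or MARVELD3 in theirs. The tight junction scaffold TJP1 (138, 147, 43.1 and 214 CPM against 164, 164, 188 and 141 CPM) was not called. Of 16 desmosome and hemidesmosome genes, 15 were tested, 7 were higher and 1 lower. PKP3 (4.12), the desmosomal cadherin DSG2, PPL, DSP (1.52) and the laminin chains LAMA3 (3.23) and LAMB3 (2.93) were among those that rose, and ITGA6, an integrin chain, fell (-1.94).

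**Figure D5:**
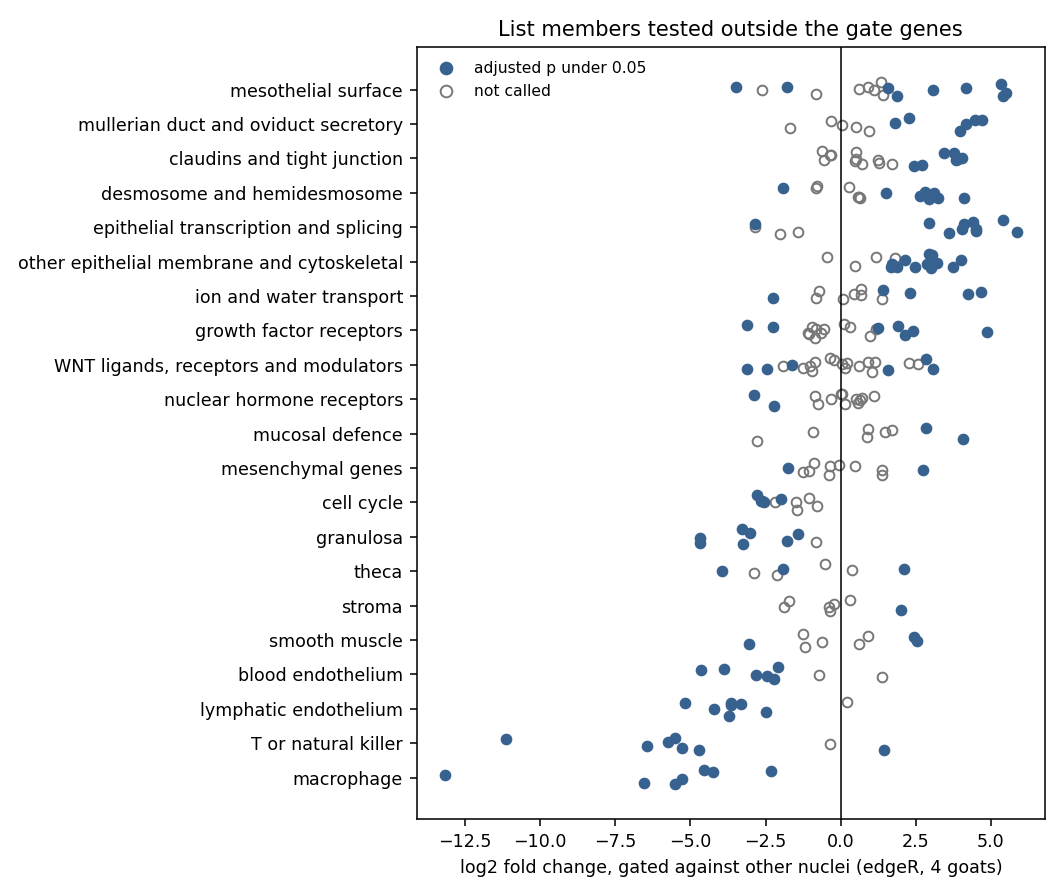
Log2 fold change between gated and other nuclei of each list member that was tested, by list, with members at an adjusted p under 0.05 filled. Epithelial lists lie mostly to the right, with 9 of 13 regulators of transcription and splicing higher, and the macrophage list wholly to the left, with 7 of 7 lower; the leftmost marks, MRC1 and CD3G, had no UMI in gated nuclei, so that their fitted values are no measure of size.

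Lists of the ovarian surface and of the genital ducts were both represented. Of 18 mesothelial and surface genes, 16 were tested, 7 were higher and 2 lower (median 1.38). ALDH1A2, which makes retinoic acid, stood at 198, 293, 147 and 485 CPM against 11.1, 12.3, 5.49 and 26.2 CPM (4.17 ± 0.42, edgeR adjusted p = 4.46e-06) and rose in every goat. WT1 stood at 241, 409, 216 and 565 CPM against 97.8, 84.0, 59.4 and 72.2 CPM (1.87 ± 0.43, edgeR adjusted p = 0.00526). CRB2 (5.50), LRRN4 (5.41), BNC1 (5.33), UPK1B (3.08) and PODXL (1.57) also rose. LRRN4, however, was seen in 8 gated nuclei. CALB2 (-3.47), the calretinin gene, and GATA4 (-1.78) fell, and LHX9 was seen in 1 nucleus each of subsets 1 and 5. LHX2 had no UMI in gated nuclei and averaged 0.0307 CPM in the others. Nothing about the gated nuclei can be read from that zero.

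Of 18 genes of the genital ducts and oviduct secretory cells, 11 were tested, and 6 were higher and 0 lower (median 1.82). Among them were PAX2, WFDC2 (4.16), MUC1 (3.98), SOX17 (2.28) and EMX2 (1.82), and without Du'an 2 there were 4. WFDC2, a secreted protease inhibitor, varied among goats, with 0, 52.4, 8.63 and 42.8 CPM in gated nuclei. FOLR1, WNT7A, LHX1, HOXA10 and HOXA11 had no UMI in any gated nucleus and averaged 0.0756, 0.0432, 0.0212, 0.143 and 0.00423 CPM in the others, so that nothing about the gated nuclei can be read from these zeros.

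Receptors and transporters were mixed. Of 20 growth factor receptors, 18 were tested, 5 were higher and 2 lower (median -0.23, the same as over all genes). ERBB4, a neuregulin receptor, stood at 791, 1418, 992 and 2731 CPM against 442, 356, 132 and 188 CPM (2.15 ± 0.53, edgeR adjusted p = 0.00868). FGFR2 stood at 34.4, 442, 246 and 1082 CPM against 124, 27.3, 37.0 and 76.9 CPM (2.40 ± 0.72), so that Du'an 1 went the other way, and it was not called without Du'an 2 (1.85). ERBB3 (4.87), MET (1.92), the receptor of hepatocyte growth factor, and FGFR1 (1.25) rose, and TGFBR3 (-3.12) and INSR (-2.26) fell; without Du'an 1 or Du'an 2 there were 3 higher. BMPR1B, a bone morphogenetic protein receptor, was the most abundant of the list in gated nuclei, at 5011, 3504, 2097 and 5179 CPM against 2064, 1182, 1425 and 1056 CPM. It was higher in 4 of 4 goats without overlap, and was not called (1.18 ± 0.51, edgeR adjusted p = 0.126). Among 12 tested genes of ion and water transport, 4 were higher and 1 lower. SLC34A2 (4.67), a phosphate transporter, AQP5 (4.24), a water channel, CFTR (2.30) and ATP1B1 (1.41) rose and KCNQ1 (-2.25) fell. Without Du'an 2 there were 2 higher. SLC34A2, AQP5 and CFTR had no UMI in the gated nuclei of Du'an 1. They stood at 54.8, 59.6 and 76.3 CPM in Du'an 2, 21.6, 4.31 and 8.63 CPM in Nubian 1, and 85.2, 31.1 and 131 CPM in Nubian 2. ATP1B1 stood at 25.8, 195, 345 and 206 CPM in gated nuclei, with 41.1% of its gated UMIs in subset 4. Without that subset it stood at 25.8, 84.0, 31.8 and 218 CPM.

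Of 13 tested nuclear hormone receptors edgeR called 0 higher (0 at an unadjusted p under 0.05, 0 with DESeq2) and 2 lower, ESR2 (-2.88) and PPARG (-2.23). ESR1 stood at 404, 964, 298 and 1301 CPM in gated against 381, 371, 452 and 308 CPM in other nuclei (0.51 ± 0.51, edgeR adjusted p = 0.534), with gated above other nuclei clearly in Du'an 2 and Nubian 2. Without the nuclei of subset 4, ESR1 stood at 404, 1579, 720 and 1766 CPM, so that Nubian 1 was above its other nuclei as well. The count of nuclear hormone receptors called higher was 2 without Nubian 1 and 4 with a gate of at least 4 epithelial genes, which left only Du'an 2 and Nubian 2. Of 22 tested WNT genes, 3 were higher and 3 lower, near the background. WNT5A (1.59), RSPO1 (3.07) and FZD1 (2.83) were the higher ones. Of these, RSPO1 was seen in 7 gated nuclei and had 63.6% of its 11 gated UMIs in subset 4. RSPO3 (-2.47), SFRP1 (-3.11) and LEF1 (-1.62) were lower, a count of 0 without Du'an 2. FZD1 had 93.9% of its gated UMIs in subset 4 and reversed to -1.20 without nuclei that had 3 genes of another list. Of 8 tested genes of mucosal defence, LTF (2.85), for lactoferrin, and CCL28 (4.06) were higher.

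Of 10 cell cycle genes, 5 were lower, 0 higher and 5 not called (median -2.09). Among the lower were MKI67 (0, 17.9, 30.2 and 1.17 CPM against 25.6, 39.3, 50.7 and 51.2 CPM) and TOP2A (-2.65). This count was 3 without Du'an 1 or Nubian 2, 9 without Nubian 1, 2 with DESeq2's size factors in edgeR and 0 without the goat block. The goats went apart: all 10 genes were at 0 in the gated nuclei of Du'an 1, while in Nubian 1 they summed to 1109 CPM, above the 745 CPM of the other nuclei. CENPF, at 475 CPM there, had 74.8% of its gated UMIs in a single nucleus. Without the 3 nuclei that Nubian 1 gave to subset 4, 7 of the 10 genes, CENPF, ANLN, MKI67, TOP2A, CENPE, BUB1 and KIF11, were at 0 in Nubian 1 too, and ASPM, TPX2 and CDK1 stood at 10.6 CPM each.

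Markers of other cell types were counted list by list. Of the granulosa list, 7 of 8 were lower and 0 higher (median -3.15). FSHR stood at 25.8, 145, 60.4 and 59.1 CPM against 1580, 1936, 1477 and 1044 CPM, and INHBA, with 413, 257, 263 and 166 CPM, was the 1 gene not called. Subset 4 held 84.8% of the gated UMIs of INHBA, which stood at 413, 48.0, 148 and 14.9 CPM without it. The 8 granulosa genes summed to 963, 772, 751 and 476 CPM in the gated nuclei of the 4 libraries, 33.8%, 14.7%, 11.7% and 16.5% of their sum in the other nuclei, and 52 of the 278 gated nuclei had 3 or more of them. In macrophage genes 7 of 7 were lower (median -5.29), and MRC1 had no UMI in gated nuclei. Over the alternatives run, the count lower ranged from 4 to 8 for granulosa and from 4 to 7 for macrophage genes. In T or natural killer genes 6 of 8 were lower (median -5.41, or -5.01 with CD3G, at 0, set to the bound of 3 UMIs over all gated nuclei), while SKAP1, an adaptor of T cell receptor signalling, was higher (60.2, 412, 233 and 558 CPM against 40.8, 226, 55.5 and 66.6 CPM). SKAP1 averaged 316 ± 216 CPM (SD, n = 4 goats) in gated nuclei and 2855 ± 756 CPM in T or natural killer nuclei, and its call was lost without Du'an 2 or Nubian 2. With SKAP1 the 8 T or natural killer genes summed to 68.8, 433, 263 and 578 CPM in gated and 80.2, 492, 133 and 150 CPM in other nuclei, above the other nuclei in both Nubian goats. Lymphatic endothelium had 7 of 8 genes lower (5 to 7 over the alternatives run) and blood endothelium 6 of 8 (3 to 6). EMCN, the endothelial sialomucin gene, was the most abundant blood endothelial gene in gated nuclei of 3 libraries, at 274, 104 and 601 CPM in Du'an 2, Nubian 1 and Nubian 2, and was not called (adjusted p = 0.164 with edgeR), whereas PECAM1 stood at 0, 7.15, 4.31 and 0.389 CPM. The 8 blood endothelial genes summed to 43.0, 354, 229 and 648 CPM in gated and 364, 415, 417 and 223 CPM in other nuclei, above the other nuclei in Nubian 2.

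The stroma list summed to 60.2, 667, 660 and 1077 CPM in gated and 381, 362, 627 and 480 CPM in other nuclei. Smooth muscle summed to 327, 651, 3102 and 648 CPM against 945, 520, 1117 and 754 CPM. Theca summed to 421, 504, 207 and 152 CPM against 173, 874, 910 and 339 CPM. LAMA2 led the stroma sum in Nubian 2 (893 CPM), with 69.8% of its gated UMIs in subset 2 and 2.52% in subset 4. A few genes of stroma, muscle and theca were called higher, and those called were genes of subset 4. SPARC (log2 fold change 2.73), TAGLN (2.46), ACTG2 (2.54), LUM (2.01) and CYP11A1 (2.10), the first enzyme of steroid synthesis, had 93.2%, 98.1%, 96.7%, 96.3% and 90.4% of their gated UMIs in its 24 nuclei. Without gated nuclei that had 3 genes of another list, a setting that itself counts all of these but SPARC, all 5 reversed, to -1.60, -4.87, -4.47, -3.32 and -3.60 in that order, and under the study's filters on nuclei to -1.13, -3.45, -3.46, -1.78 and -3.21. Stroma as a list had 1 of 7 genes higher, and smooth muscle 2 of 8 higher and 1 lower. Theca had 1 of 7 higher and 2 lower, and the mesenchymal list 1 of 11 higher and 1 lower. Over the alternatives run, the counts lower ranged from 0 to 3 for stroma and 1 to 4 for smooth muscle. For theca they ranged from 0 to 4, and for the mesenchymal list from 0 to 7. The counts higher fell to 0 in each of these lists.

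Against granulosa nuclei alone (22773 nuclei with 3 or more of the 8 granulosa genes), which are the most abundant class, 2138 of 15285 genes were higher (14.0%) and 1616 lower (10.6%) with edgeR; DESeq2 gave 2505 and 1213. The comparison shares its gated sums with the one above, and 1018 genes were higher in both, 96.6% of those higher than in other nuclei and 47.6% of those higher than in granulosa nuclei. All 15 genes named as higher kept their call in every alternative run, and 6 of the 8 named as lower did; S100A8 and S100A9 lost theirs under the study's filters, and S100A8 also without the goat block. EHF stood at 7.48 ± 0.60 on the log2 scale, GRHL2 at 6.87 ± 0.53, PAX2 at 6.53 ± 0.66 and SPOCK1 at 6.18 ± 0.59. FRK, a Src-related kinase, and PPP2R2B, a phosphatase subunit at a mean of 718 CPM in gated nuclei, were among the 15 here and not above. Lower genes included SLC24A2, a sodium, potassium and calcium exchanger (-5.26), PTPRN2 (-4.91) and FAM19A2 (-4.86), which fell from a mean of 1237 to 43.6 CPM. In the regulators of epithelial transcription and splicing 9 of 12 tested genes were higher and 2 lower, and in the mesothelial list 10 of 16 were higher and 2 lower.

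The gated nuclei were also compared with multiciliated nuclei, those with 4 or more of the 8 cilia genes, from which the rule itself separated them. Only Du'an 2, Nubian 1 and Nubian 2 had 10 or more nuclei of both, with 79, 16 and 105 multiciliated nuclei. Of 10640 genes tested with edgeR, 78 were higher in the gated nuclei (0.733%) and 331 lower (3.11%). In the membrane, claudin, desmosome, mesothelial and duct lists 0 members were called in either direction. At an unadjusted p under 0.05, 2 of 13 mesothelial and 1 of 13 membrane genes were higher, 1 of 14 claudin and 2 of 12 desmosome genes were lower, and 0 of 8 duct genes passed. GRHL2 stood at 129, 43.1 and 257 CPM in gated and 74.5, 15.3 and 131 CPM in multiciliated nuclei (log2 fold change 0.89 ± 0.46, edgeR adjusted p = 0.358). PAX2 stood at 72.7, 30.2 and 177 CPM against 62.9, 34.4 and 126 CPM (0.09 ± 0.44, edgeR adjusted p = 0.937). With 3 goats these p-values do not show that the classes had equal levels.

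The number of cilia genes divided the 2 classes, so that low cilia genes in the gated nuclei follow from the rule and are given as a description. FOXJ1, the master regulator of motile cilia, stood at 0, 0 and 0.778 CPM in gated and 48.8, 0 and 227 CPM in multiciliated nuclei, with no UMI in either class of Nubian 1. DNAH6, an axonemal dynein chain, had 3 UMIs in the gated nuclei, all in Nubian 2, against 672, 183 and 1405 CPM in multiciliated nuclei, and DTHD1 had 1 UMI against 541, 115 and 1036 CPM. CCDC60, C15H11orf88, LRRC36, RIBC2 and KIF19 had none. The 15 genes named as higher, such as MMP9, MUSTN1, TAGLN and TIMP1, were again genes of subset 4, which held at least 80% of the gated UMIs of all 15 and at least 90% for 13. TIMP1 stood at 2796, 1407 and 3567 CPM against 37.3, 45.8 and 65.1 CPM, and its log2 fold change went from 5.54 to 0.14 without nuclei that had 3 genes of another list (edgeR adjusted p = 0.933) and to -0.047 under the study's filters. The count of higher genes was 34 without Du'an 2 and 329 without Nubian 1.

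Of 7817 genes tested with edgeR on 2 goats a breed, 0 were called in either direction (0%), and 65 had an unadjusted p under 0.05; DESeq2 called 0, with 85 under 0.05. With no filter on low counts edgeR called 4 genes in each direction among 17069. Both Nubian goats were above both Du'an goats in 835 genes (10.7%), and both Du'an goats above both Nubian goats in 771 (9.86%). With 2 goats a breed, many genes separate in this way without any breed difference, so these counts are a description only. Goats of 1 breed differed widely: WT1 stood at 241 and 409 CPM in the Du'an and 216 and 565 CPM in the Nubian goats, and ALDH1A2 at 198 and 293 against 147 and 485 CPM. In both genes the breeds overlapped. The goats' gated sums came from different subsets, with 73.3% of the UMIs of Du'an 1 in subset 5 and 59.3% of those of Nubian 1 in subset 4. Without subset 4, WT1 stood at 241 and 630 CPM in the Du'an and 508 and 772 CPM in the Nubian goats, and ALDH1A2 at 198 and 492 against 360 and 662 CPM; the part of the subsets in the spread between goats was not tested. In simulated data the breed fit recovered 0 of 49 genes planted at a log2 fold change of 3. The 0 calls therefore do not show that the breeds had equal levels. With 10 and 12 nuclei in Du'an 1 and Nubian 1, differences between breeds were poorly resolved at this depth. Without Du'an 1 there were 6 genes higher in the Nubian and 5 in the Du'an goats, without Nubian 1 there were 5 and 2, and without Du'an 2 there were 0 and 6. In each of these fits 1 breed was a single goat, assumed to vary like the goats of the other breed, so these calls do not compare with those of 2 goats a breed.

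Among the members, nuclei with and without a PAX8 UMI were compared within Du'an 2 and Nubian 2, the libraries with 10 or more of each. PAX8 is itself one of the 8 gate genes, so that a nucleus without it had to enter on 3 of the others, and the median depth of gated nuclei was 7664.5 UMIs at 3 gate genes and 12824 UMIs at 5. The split therefore used the rule, its values are a description, and the part of depth in them was not tested. Of 8252 genes, 2 were higher with PAX8 and 2 lower (0.0242% in each direction, edgeR), and no other gene outside the gate was called. NMB, the neuromedin B gene, fell outside the naming rule and was chosen after its values were seen (2.87 and 1.94 CPM with PAX8 in Du'an 2 and Nubian 2 against 42.2 and 21.7 CPM without). ISG15, an interferon-induced gene, stood at 47.3 and 103 CPM with PAX8 and at 0 without it, with 78.1% of its gated UMIs in 1 nucleus. MMP9 (100 and 491 against 14.1 and 39.5 CPM) had 53.1% of its UMIs in 1 nucleus, and FABP5 (15.8 and 22.8 against 42.2 and 510 CPM), a fatty acid binding protein, 67.4%. Subset 4 held 99.9% of the gated UMIs of MMP9, 91.4% of those of FABP5 and 90.2% of those of ISG15. DESeq2 called 0 genes, with 67 at an unadjusted p under 0.05.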

How the data were processed

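Per the labels and the study's methods, reads were mapped and counted by the authors with Cell Ranger (version 5.0.0 in the submitters' processing notes, 3.1.0 in the headers of the matrices) and analysed with Seurat. The deposited matrices hold UMI counts per gene and nucleus, filtered to nuclei and not normalized. The authors' tables of marker genes for granulosa subtypes and follicle stages hold their own comparisons and were not used. Gene names come from the files; 2 locus tags were named from RefSeq.

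UMI counts were summed per library and class, with at least 10 nuclei a sum. CPM is UMIs per 1000000 UMIs of a sum. Main tests used edgeR 4.0.16 (glmQLFit, TMM, filterByExpr) and alternatives DESeq2 1.42.0, in R 4.3.3. Alternatives also changed the size factors, the filter on low counts, the block, the gate, the filters on nuclei and the libraries. The 16 gate genes, and against granulosa nuclei also the 8 granulosa genes, were left out of the tests. The fits were tested on simulated data with genes planted at log2 fold changes of 1, 2 and 3. Against other nuclei, 3 of 66, 23 of 66 and 45 of 64 planted genes were recovered, in that order. Against multiciliated nuclei it was 0 of 62, 2 of 62 and 20 of 61. Between breeds it was 0 of 57, 0 of 54 and 0 of 49, so that fit could not call changes of these sizes. Subsets came from Leiden clustering in scanpy 1.11.5 (2000 variable genes, 15 components, 10 neighbours, resolution 0.3) of the 13671 genes seen in at least 5 gated nuclei. No doublet caller was run, so that the setting named the study's filters leaves out the study's own doublet removal. Libraries shared 54 to 131 barcodes per pair.

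Named genes were up to 15 higher and 8 lower by log2 fold change among those at an adjusted p under 0.05, in the same direction in every goat, with a mean of at least 50 CPM in the higher class. The members and lists were chosen with earlier results of these data known. Goats are the replicates, and nuclei are not. Some genes of the lists are not reported here.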

Additional observations from a re-analysis of the deposited data

How the results depend on the processing

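The counts of genes moved with single libraries, those with few gated nuclei included: of the genes higher than in multiciliated nuclei, 329 were called without Nubian 1 and 34 without Du'an 2. With 1 library left out at a time, genes higher than in other nuclei ranged from 457 to 1694 and lower from 673 to 1493; against granulosa nuclei from 935 to 2072 and 667 to 1531; against multiciliated nuclei from 34 to 329 and 120 to 745; between breeds from 0 to 6 in each direction; and the breed difference in share from -0.306 to 1.79 points. Without gated nuclei that had 3 genes of another list, 688 genes were higher than in other nuclei, 1124 higher and 926 lower than in granulosa nuclei, and 40 higher than in multiciliated nuclei. This setting, the study's filters and the stricter gate left only Du'an 2 and Nubian 2 with 10 or more gated nuclei, so that breeds could not be tested under them. Against multiciliated nuclei, DESeq2 gave 222 higher, no filter on low counts 541 higher and 899 lower, the study's filters 319 and 833, and Du'an 2 with Nubian 2 alone, a setting chosen after seeing the data, 329 and 745. With no filter, 4 genes were called in each direction between breeds. In the PAX8 comparison DESeq2 gave 0 and 0, no filter 1 and 0, and no goat block 0 and 0; it could not be fitted with a library left out. The cause was not tested in these cases.

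Genes whose sign reversed without nuclei of another list, and under the study's filters, were FZD1 (-1.20 and -8.10), LUM (-3.32 and -1.78), SPARC (-1.60 and -1.13), ACTG2 (-4.47 and -3.46), TAGLN (-4.87 and -3.45) and CYP11A1 (-3.60 and -3.21). The value of -8.10 is a fitted one for a gene with few or no UMIs left and no measure of size. Under the study's filters TIMP1 against multiciliated nuclei reversed too (-0.047). Of the 15 genes named as higher than in other nuclei, 13 kept direction and call in every alternative, as did 6 of the 8 lower. Against multiciliated nuclei, 8 of the 15 higher and 6 of the 8 lower did, over the alternatives in which each was tested. Only 1 of those 15 could be tested under the study's filters or without nuclei of another list. In the PAX8 comparison 0 of the 2 higher and 0 of the 1 named lower did.

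The replicate numbers in the labels do not pair animals. With the replicate number as a block between breeds, 0 genes were called, with 19 at an unadjusted p under 0.05. Deviations of like-numbered goats correlated at -0.153 over 7817 genes, and with the crossed pairing 0 were called, with 122 under 0.05. The fold against other nuclei differed between breeds for 0 of 16391 genes by edgeR's interaction test, with 216 at an unadjusted p under 0.05.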
